A study of Homo sapiens with 4 samples.

Results

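Condensin and cohesin are the ring-shaped SMC complexes that fold and hold chromosomes, and 10 genes for their subunits were followed in RCC4 cells, an established human clear cell renal carcinoma line, with and without depletion of PML. The 10 genes were taken by symbol from a table of 59050 genes. They are SMC2 and SMC4, which both condensins share, NCAPD2, NCAPG and NCAPH of condensin I, NCAPD3, NCAPG2 and NCAPH2 of condensin II, and the cohesin core genes SMC1A and SMC3. All 10 were among the 16516 genes that passed the filter on low counts, with between 570 and 16247 reads per gene and library.

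The shCtrl cells carried a scrambled short hairpin RNA and the shPML cells a hairpin against PML, each from a doxycycline-inducible lentiviral vector with puromycin selection. Both groups received doxycycline at 100 ng/ml for 96 h, so vector, selection and drug were common to them. There were 2 libraries of each group, from 2 experiments with separate infections, and the cells were transduced populations rather than clones. A single hairpin was sequenced, so effects of that hairpin on other transcripts cannot be told apart from effects of PML depletion.

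In condensin, SMC2 and SMC4 pair into a V-shaped ATPase that a kleisin subunit closes into a ring (NCAPH in condensin I, NCAPH2 in condensin II). The HEAT-repeat subunits NCAPD2 and NCAPG, or NCAPD3 and NCAPG2, sit on that kleisin. Condensin II is nuclear throughout the cell cycle and starts the compaction of chromosomes in prophase, and condensin I reaches them after the nuclear envelope breaks down. Cohesin is built the same way from SMC1A, SMC3 and the kleisin RAD21, but it forms loops in interphase and holds sister chromatids together until anaphase.

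Several condensin genes are known in other cells as targets of the cell cycle complexes that bind the cell cycle genes homology region, or CHR, a short promoter word. The words TTTGAA and TTTAAA were therefore searched for on both strands in the RefSeq promoters of GRCh38.p14, each 300 bases long, from 250 bases before a start of transcription to 50 after. Promoter entries were at hand for 9 of the 10 genes, all but NCAPH2. The stretches around the words are shown because a CHR word was present in all 7 condensin genes with an entry, and also in SMC3. Capitals mark the word, and TTCAAA is TTTGAA read on the other strand.
NCAPH: cgacgcgcgcgaTTTAAAaccagctcagga
NCAPG: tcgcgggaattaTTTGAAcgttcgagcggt
NCAPD2: cagccgttgagaTTTGAActcggtatttgt
SMC2: ctcgcgccgaaaTTCAAAggaataaatagt
SMC4: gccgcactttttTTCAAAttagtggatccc
NCAPD3: gcgggagcgagcTTTGAAagttgagcacgg
NCAPG2: ccggcgggtgcgTTTGAAtctggtccg
SMC3: cagaattctagaTTCAAAagaaatccacca

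These stretches lie at chr2:96335786-96335815 on the plus strand for NCAPH, chr4:17810932-17810961 plus for NCAPG, chr12:6493945-6493974 plus for NCAPD2, chr9:104094294-104094323 plus for SMC2 and chr3:160399563-160399592 plus for SMC4. Those of NCAPD3 and NCAPG2 lie on the minus strand, at chr11:134223953-134223982 and chr7:158704755-158704781, and that of SMC3 at chr10:110567532-110567561 on the plus strand. A CHR word was present in 7 of the 7 condensin genes with an entry and in 1 of the 2 cohesin genes, against 27.9% of all 27305 genes with an entry. The word began 3 bases before the start in SMC2 and in the second of the listed starts of NCAPD3, 35 before it in NCAPG and 75 before it in SMC4. It began 32 and 35 bases after the start in NCAPH and NCAPG2, and it was farther upstream, at 145 and 151 bases, in NCAPD2 and SMC3. SMC1A had none in either of its windows.

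Other words of cell cycle promoters were found in fewer of the genes. CCAAT, the letters that the factor NF-Y binds, was present in NCAPD2, NCAPH and NCAPD3 and in neither cohesin gene, that is in 3 of 7 condensin genes against 39.7% of all genes. An E2F word, which was TTCCCGC in its first form, TTGGCGC in the next form and either TTCGCGC or else the word TTGCCGC in the others, was present in SMC4, NCAPG, NCAPD3 and SMC1A, against 15.3% of all genes. These are matches of letters, and binding was not measured here.

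The libraries held between 27781193 and 69870617 counted reads, and 1 column of each group bears the number 2, so its unnumbered partner was read as replicate 1. All 8 markers of a renal carcinoma line, such as PAX8, CA9 and VIM, were present in every library, at 27.8 CPM or more (library-scaled counts after TMM normalization). The library labelled shPML replicate 2 stood apart in its markers of blood cells. PTPRC, CD14 and PECAM1 reached 12.6, 42.8 and 4.11 CPM in it, the other 6 of 9 markers of other cell types stayed near 0, and no marker passed 0.389 CPM in the other 3 libraries. The T cell marker CD3E and the fibroblast markers DCN and LUM had no read in any library. Of 9 monocyte and macrophage genes chosen after CD14 and PTPRC had been seen, all were at 8.37 to 85.4 CPM in shPML replicate 2 (LYZ the highest) and at 1.19 CPM or less elsewhere, and their summed level was 256 CPM against 0.851 to 2.19. The part of this in the changes of the SMC genes was not tested, and values within replicate 1, which does not include that library, are given beside them.

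PML, the target of the hairpin and the scaffold of PML nuclear bodies, was measured at 93.1 and 136 CPM in shCtrl replicates 1 and 2 and at 54.9 and 87.6 CPM in shPML replicates 1 and 2. Each shPML library was below the shCtrl library of its replicate, and the 2 groups did not overlap. The log2 fold change was -0.70 ± 0.11 (SE, n = 2 per group, edgeR's quasi-likelihood test with replicate as a block, adjusted p = 4.2e-07). Without the block, the adjusted p of PML was 0.32 in edgeR and 0.22 in DESeq2.

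Condensin transcripts were lower in shPML. Calls required both an adjusted p below 0.05 and a log2 difference larger than 0.5 in that fit. By this rule, 7 of the 8 condensin genes fell and neither cohesin SMC gene was called, where 10.5% of all genes tested were called lower and 8.57% higher. The median log2 fold change of the 8 condensin genes was -0.98, with a range from -1.31 to -0.49, against 0.00 over all genes. Within replicate 1 alone the condensin median was -0.84, and within replicate 2 it was -1.11. In bulk RNA, fewer cells of a kind, such as fewer cells near mitosis, and less RNA per cell cannot be told apart.

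These calls rest on the replicate block, which compares each shPML library with the shCtrl library of its own experiment. Without it edgeR called 0 of the 10 genes, where it called 0.333% of all genes lower; the adjusted p ran from 0.064 to 0.58 and 9 of the 10 were lower at an unadjusted p under 0.05. DESeq2 without the block called the same 7 condensin genes, with 5.44% of all genes called lower. With 2 libraries against 2 and the pairing ignored, the exact two-sided permutation test of a single gene cannot go below p = 0.333. The floor is higher where labels are exchanged only within replicates. Both shPML libraries were below both shCtrl libraries for 9 of the 10 genes, all but SMC3, and for 24.9% of all genes.

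**Figure D1:**
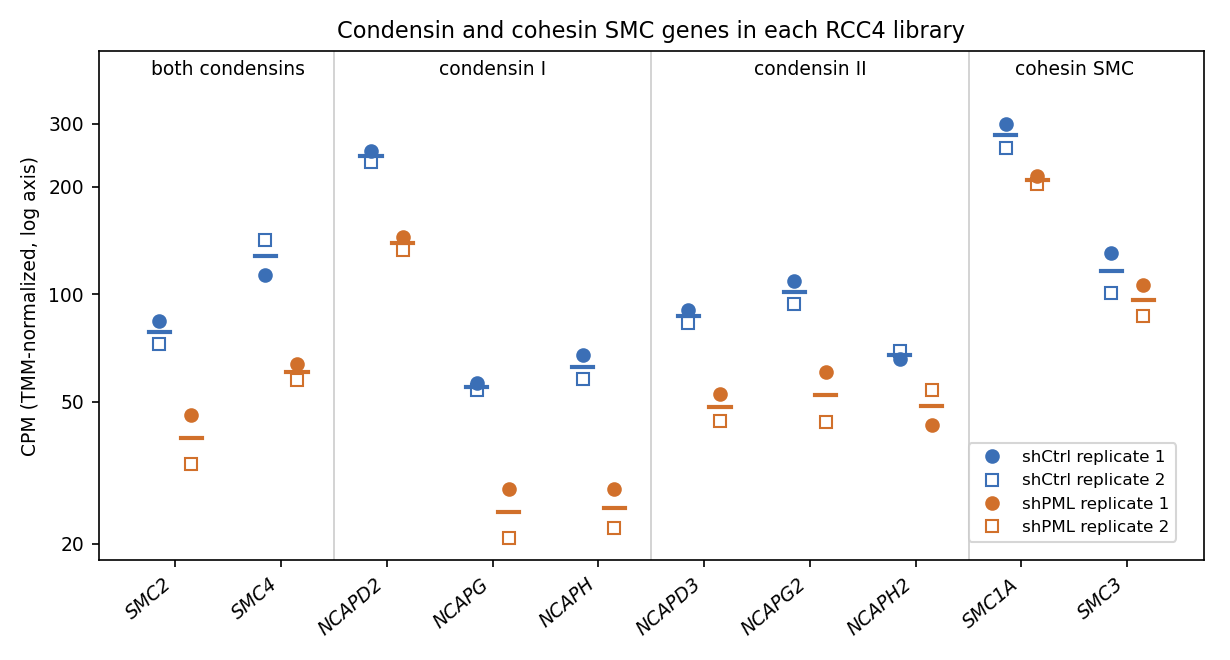
CPM of the 10 genes in each library on a log axis, with shCtrl in blue, shPML in orange, replicate 1 as filled circles, replicate 2 as open squares and the mean of each group as a bar. The groups are separate for the 8 condensin genes and SMC1A and overlap for SMC3.

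The SMC pair of condensin is encoded by SMC2, on chr9:104094260-104141419, and SMC4, on chr3:160399650-160434953 (plus strand, GRCh38, as the deposited table places them). SMC2 was at 84.2 and 72.7 CPM in shCtrl and at 45.8 and 33.5 CPM in shPML. SMC4 was at 113 and 142 CPM in shCtrl and at 63.8 and 57.4 CPM in shPML. In both genes each shPML library was well below both shCtrl libraries, and shCtrl replicate 2 was the lower of its group for SMC2 and the higher for SMC4. The log2 fold change was -0.99 ± 0.12 for SMC2 (adjusted p = 3.9e-10, edgeR) and -1.06 ± 0.11 for SMC4 (adjusted p = 1.7e-11). The log2 ratio within replicates 1 and 2 was -0.88 and -1.12 for SMC2, and -0.83 and -1.31 for SMC4. The exons of SMC4 share 25.1% of their bases with TRIM59 on the opposite strand, which was lower too (log2 fold change -0.60), and the strand setting of the counting is not given in the sources used here.

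NCAPH, the kleisin of condensin I, on chr2:96335766-96377091, had the largest decrease of the 10 genes. Its level was 67.4 and 57.7 CPM in shCtrl and 28.5 and 22.1 CPM in shPML. The shPML mean was 40.4% of the shCtrl mean. The log2 fold change was -1.31 ± 0.12 (adjusted p = 1.5e-13), with -1.24 in replicate 1 and -1.38 in replicate 2.

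NCAPG, on chr4:17810979-17844865, is the HEAT-repeat subunit of condensin I that takes part in its grip on DNA. It was at 56.3 and 54.0 CPM in shCtrl and at 28.6 and 20.7 CPM in shPML. The log2 fold change of NCAPG was -1.17 ± 0.13 (adjusted p = 1.6e-11), with -0.98 in replicate 1 and -1.38 in replicate 2. Its exons share 35.6% of their bases with LCORL on the other strand, whose log2 fold change was 0.09 (not called). NCAPD2, the other HEAT-repeat subunit, on chr12:6494102-6531955, was the most abundant condensin transcript. It was at 251 and 235 CPM in shCtrl and at 145 and 133 CPM in shPML. The log2 fold change of NCAPD2 was -0.81 ± 0.10 (adjusted p = 1.5e-09), and its decrease was nearly equal in the 2 replicates, at -0.79 and -0.82.

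For condensin II, NCAPD3 and NCAPG2 fell and NCAPH2 was not called. NCAPD3, on the minus strand of chr11:134152445-134224532, was at 90.1 and 83.1 CPM in shCtrl and at 52.6 and 44.0 CPM in shPML. NCAPG2, on the minus strand of chr7:158631313-158704829, was at 109 and 94.0 CPM in shCtrl and at 60.4 and 43.9 CPM in shPML. Both were thus reduced to a little over 50% of the shCtrl mean, 55.8% for NCAPD3 and 51.4% for NCAPG2. The log2 fold changes were -0.84 ± 0.11 for NCAPD3 (adjusted p = 1.5e-08, edgeR) and -0.97 ± 0.11 for NCAPG2 (adjusted p = 2.5e-10). Within replicates 1 and 2 the log2 ratio was -0.78 and -0.92 for NCAPD3, and -0.85 and -1.10 for NCAPG2.

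NCAPH2, the kleisin of condensin II, on chr22:50508224-50524780, had the smallest difference of the 8. It was at 65.8 and 69.3 CPM in shCtrl and at 43.1 and 54.0 CPM in shPML. The groups did not overlap, and shPML replicate 2 lay nearer to its control than shPML replicate 1 did. The log2 fold change was -0.49 ± 0.12, just short of the threshold on its size, with an adjusted p of 0.00073. It was -0.61 in replicate 1 and -0.36 in replicate 2, which made NCAPH2 the one condensin gene with the smaller decrease in replicate 2. Its exons share 22.3% of their bases with SCO2 on the opposite strand, which was at 34.5 and 34.6 CPM in shCtrl and at 44.2 and 42.2 CPM in shPML. On the same strand as NCAPH2, U62317.2 also shares 22.3% of those bases, and it had 0 reads counted in every library. The study's methods do not say how reads in shared bases were counted. The part of SCO2 reads and of these shared bases in the NCAPH2 value was not tested.

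The kleisins of the 2 condensins differed in the size of their change. Per base of exon, the ratio of NCAPH to NCAPH2 was 0.627 and 0.509 in shCtrl replicates 1 and 2 and 0.403 and 0.250 in shPML replicates 1 and 2. Each shPML ratio was below both shCtrl ratios. The matching ratio of the HEAT-repeat subunits changed less, from 0.648 and 0.719 to 0.592 and 0.591 for NCAPG to NCAPG2 and from 3.46 and 3.51 to 3.42 and 3.76 for NCAPD2 to NCAPD3. The mean log2 fold change of the 3 subunits found in condensin I alone was -1.10, and that of the 3 of condensin II was -0.77. SMC2 and SMC4 were at 0.733 and 0.505 to 1 in shCtrl and at 0.709 and 0.575 to 1 in shPML, so that the ratio differed more between replicates than between groups.

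The cohesin SMC genes were not called. SMC1A, on the minus strand of chrX:53374149-53422728, was at 300.2 and 257 CPM in shCtrl and at 215 and 203 CPM in shPML. The groups did not overlap, but the log2 fold change of -0.41 ± 0.10 was under the threshold on size (adjusted p = 0.00066, edgeR). SMC3, on chr10:110567691-110604636, was at 130 and 101 CPM in shCtrl and at 106 and 87.1 CPM in shPML. The SMC3 groups overlapped, since shPML replicate 1 was above shCtrl replicate 2, and the log2 fold change was -0.26 ± 0.11 (adjusted p = 0.057). Both genes had values below 0 in each replicate, at -0.48 and -0.34 for SMC1A and at -0.30 and -0.21 for SMC3. With no threshold on the fold change, SMC1A and NCAPH2 would be counted lower as well, which makes 9 of the 10 genes against 15.7% of all genes.

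Set against the cohesin pair, condensin was lower in shPML within both experiments. The mean log2 fold change of the 8 condensin genes was -0.96 and that of SMC1A and SMC3 was -0.34, a difference of -0.62, and it was -0.48 within replicate 1 and -0.77 within replicate 2. The difference was -0.76 for the condensin I subunits, -0.43 for those of condensin II and -0.69 for SMC2 and SMC4. The mean condensin level per base of exon was 0.637 and 0.756 times that of cohesin in shCtrl replicates 1 and 2 and 0.469 and 0.477 times in shPML replicates 1 and 2. The shCtrl ratios thus differed by more than the shPML ratios did, and all shPML ratios of the 4 sets were below the shCtrl ratios. The 10 genes were chosen with their changes known, so no test of this difference is given.

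**Figure D2:**
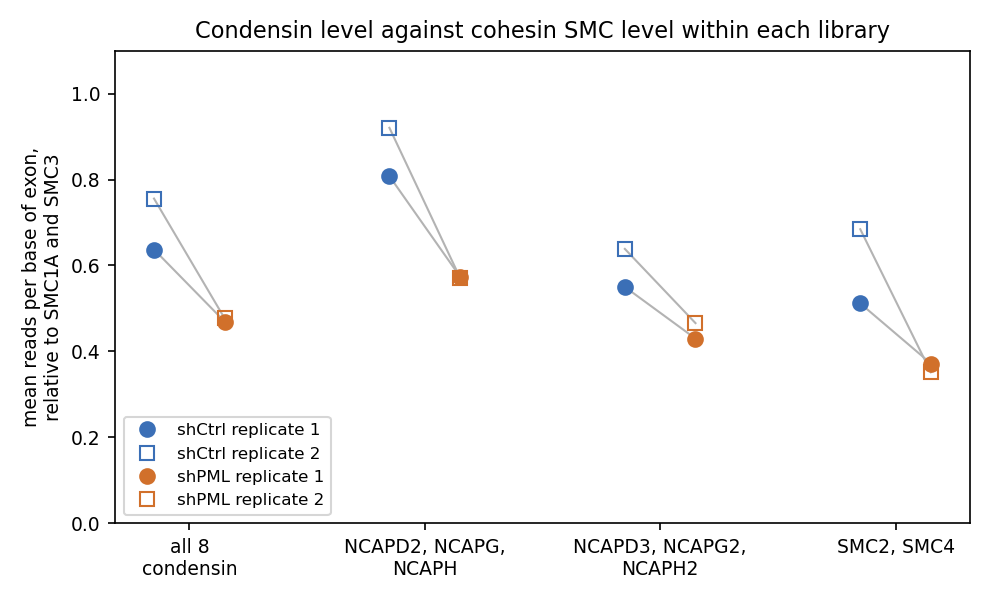
Mean reads per base of exon of each set of condensin genes relative to the mean of SMC1A and SMC3 in the same library. Lines join the shCtrl library (blue) to the shPML library (orange) of the same replicate, and every line descends, from 0.637 to 0.469 in replicate 1 and from 0.756 to 0.477 in replicate 2 for all 8 genes.

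The order of the transcripts per length was much the same in both groups. In TPM (counts divided by exon length and scaled to the same total in each library), NCAPD2 was highest in shCtrl at 134 ± 7.49 (SD, n = 2) and NCAPH lowest at 26.6 ± 3.12. SMC3 at 75.1 ± 14.1 and SMC1A at 74.9 ± 8.81 came next after NCAPD2, and their ranges overlapped, followed by SMC4 at 54.9 ± 8.30, NCAPG2 at 47.1 ± 5.25 and NCAPH2 at 46.9 ± 1.37. Among these the ranges of SMC4 and NCAPG2 overlapped, as did those of NCAPG2 and NCAPH2. NCAPD3 at 38.6 ± 2.50, SMC2 at 33.3 ± 3.70 and NCAPG at 32.1 ± 1.21 lay between these and NCAPH, and SMC2 and NCAPG overlapped. In shPML, NCAPD2 was again highest at 77.6 ± 4.19, then SMC3 at 63.2 ± 8.38 and SMC1A at 56.7 ± 1.98. NCAPH2 took the fourth place at 34.1 ± 5.58, above SMC4 at 26.4 ± 1.82 and NCAPG2 at 24.5 ± 5.35, without overlap with SMC4. The last 4 kept their order, with NCAPD3 at 21.7 ± 2.60, SMC2 at 17.0 ± 3.66, NCAPG at 14.5 ± 3.17 and NCAPH at 10.8 ± 1.87. Neighbors in this order whose shPML ranges overlapped were SMC3 and SMC1A, SMC4 and NCAPG2, NCAPG2 and NCAPD3, and SMC2 and NCAPG.

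Other subunits of cohesin did not follow one pattern. RAD21, the kleisin, was at 148 and 184 CPM in shCtrl and at 122 and 109 CPM in shPML, and fell with a log2 fold change of -0.51 ± 0.11 (adjusted p = 0.00012, edgeR). Its decrease was -0.27 in replicate 1 and -0.75 in replicate 2, and its call sat on the threshold of 0.5. It was not called at -0.48 to -0.50 under RLE, upper-quartile or no scaling, with 10 counts in every library, or in DESeq2 with the block (adjusted p = 0.0015), nor without the block in edgeR or DESeq2. The fourth-subunit genes STAG1 and STAG2, with log2 fold changes of -0.11 and 0.11, were not called. Of 6 genes for loading and release of cohesin, 1 was called lower, where 10.5% of all genes tested were called lower. It was the SMC3 deacetylase HDAC8 (-0.53 ± 0.19, adjusted p = 0.031, edgeR). HDAC8 was not called in DESeq2, without the block, under upper-quartile scaling or with no filter. The loader genes NIPBL and MAU2 had log2 fold changes of 0.18 and -0.13, the release factor WAPL had -0.06, and PDS5A and PDS5B had -0.04 and -0.07.

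Genes that lock and open cohesin in dividing cells were lower. Of 6 genes for establishment and cleavage of cohesion, 5 fell with the block, where 10.5% of all genes did, and edgeR without the block called 1 of them and DESeq2 without it 4. CDCA5, which encodes sororin, the antagonist of WAPL, was at 119 and 107 CPM in shCtrl and at 38.9 and 34.5 CPM in shPML (log2 fold change -1.62 ± 0.11, adjusted p = 4.4e-18, edgeR). SGO1, which shields centromeric cohesin, had -1.16, PTTG1, the securin, -0.97, the S-phase acetyltransferase ESCO2 -0.94, and ESPL1, the separase that cuts RAD21, -0.79. ESCO1, the other acetyltransferase of SMC3, had 0.12 and was not called.

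Partners of condensin on mitotic chromosomes were lower as well, with 8 of 10 called against 10.5% of all genes. Without the block edgeR called 1 of them and DESeq2 8. BIRC5 and AURKB, of the chromosomal passenger complex, had log2 fold changes of -1.52 ± 0.11 and -1.22 ± 0.11, and topoisomerase TOP2A had -1.10 ± 0.10. The 2 not called, named here after their values were seen, were TOP2B, the topoisomerase also of resting cells, at -0.07 and MCPH1, an inhibitor of condensin II, at -0.02. Of 7 S-phase genes kept as a reference, 3 were called lower, MCM2 at -1.17, MCM4 at -0.65 and MCM7 at -0.58, subunits of the replicative helicase. With no threshold on the fold change, all 7 would be counted lower in the fit with the block, against 15.7% of all genes. The median log2 fold change was -1.03 over the 10 mitotic partners, -0.96 over the 6 cohesion genes, -0.43 over the S-phase genes and -0.98 over the 8 condensin genes.

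In the SMC5/6 complex, the third SMC complex and one of DNA repair, 1 of 8 genes was called lower and 1 higher, shares near the 10.5% and 8.57% of all genes tested. SLF1, which recruits the complex to lesions, had a log2 fold change of -1.13 ± 0.19 and the ubiquitin ligase subunit NSMCE1 one of 0.71 ± 0.12. Of 4 germ-line cohesin genes 3 had enough reads to be tested. REC8, the meiotic kleisin, was called higher (1.20 ± 0.45, adjusted p = 0.035, edgeR) at a low level, 0.924 and 0.861 CPM in shCtrl and 1.70 and 2.51 CPM in shPML, and DESeq2 did not call it. SMC1B (-0.99 ± 0.75) and RAD21L1 (0.61 ± 0.55) were not called. In all, 19 of the 43 tested genes of these lists other than the 10 were called lower and 2 higher, against 10.5% and 8.57% of all genes. Without the block edgeR called 2 lower and 0 higher, with 19 lower at an unadjusted p under 0.05, and DESeq2 without the block called 16 lower, where these fits called 0.333% and 5.44% of all genes lower.

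**Figure D3:**
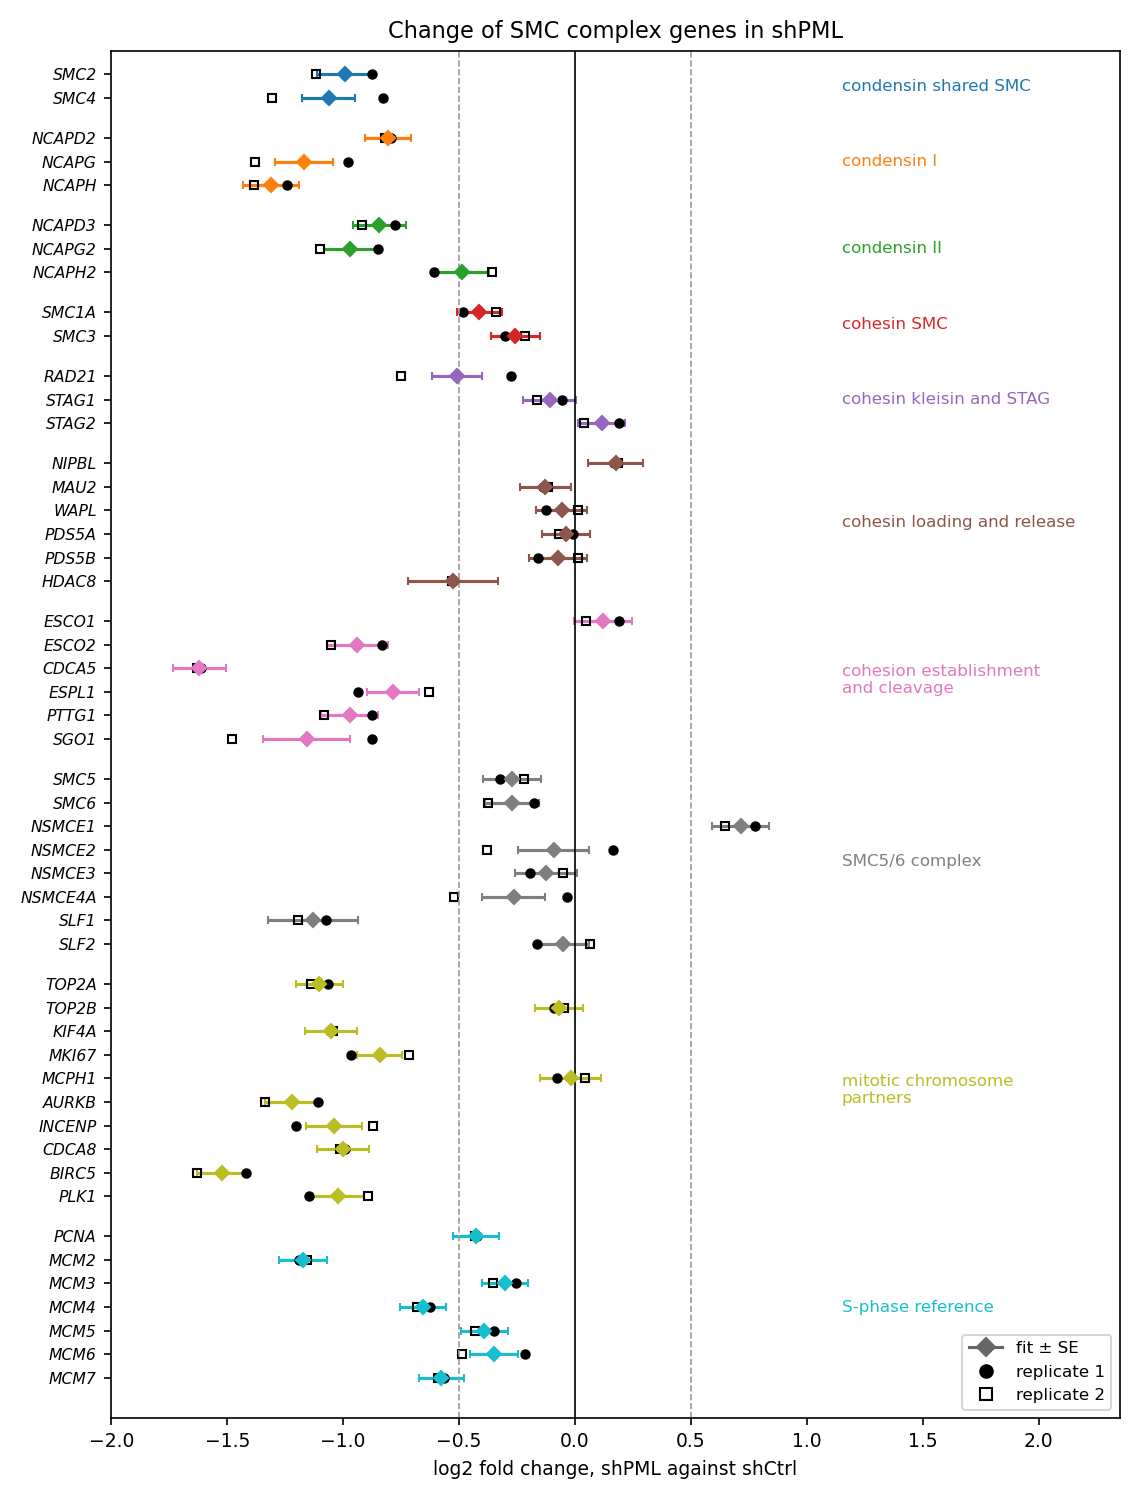
Log2 fold changes of shPML against shCtrl (diamonds, with bars of 1 SE) for the 10 genes and the listed genes of other SMC complexes, mitotic chromosomes and S phase (germ-line cohesin left out), with the ratio within replicate 1 (filled circles) and within replicate 2 (open squares). Dashed lines mark 0.5 in each direction. Condensin genes, 5 of the 6 cohesion genes and 8 of the 10 mitotic partners lie at or left of about -0.5. So do RAD21 (-0.51) and HDAC8 (-0.53). SMC1A lies at -0.41, and SMC3, STAG1, STAG2 and 5 of the 6 loading and release genes lie nearer to 0.

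The genes whose course over the 4 libraries was nearest to the mean of the condensin I subunits (SMC2, SMC4, NCAPD2, NCAPG and NCAPH) were found by the Euclidean distance between centered log2 CPM values. The 5 nearest were DLGAP5 at a distance of 0.045, NME6 at 0.050, YKT6 at 0.056, AC119673.2 at 0.057 and PIGC at 0.072. The 5 subunits themselves lay at 0.151 (NCAPG) to 0.299 (NCAPD2) from their mean, NCAPG2 and NCAPD3 at 0.183 and 0.233, and SMC1A, NCAPH2 and SMC3 at 0.690 to 0.845. Over 4 libraries such a likeness is a description.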

How the data were processed

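RNA of 4 libraries of RCC4 cells was analyzed, 2 shCtrl and 2 shPML. The deposited values are raw counts per gene. For these, per the labels and the study's methods, the authors prepared stranded mRNA libraries with single-end reads, trimmed with Trimmomatic 0.39, mapped to GRCh38 by STAR and assigned to genes by featureCounts 1.6.4. The Gencode release and the strand setting are not given in the sources used here. A deposited column of exon length, another unit, served for TPM. GEO's record says that labels had once been exchanged between shPML replicate 1 and shCtrl replicate 2 and then put right. Count columns were matched by name to the corrected labels, and whether the column names predate that correction is not given in the sources used here.

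Counts were analyzed in R 4.3.3 with edgeR 4.0.16 (filterByExpr, TMM, quasi-likelihood test with replicate as a block, Benjamini-Hochberg adjustment over all genes tested) and DESeq2 1.42.0. Figures used Python 3.11.15. The scripts were tested on simulated data. Calls needed an adjusted p below 0.05 and a log2 difference larger than 0.5. The block follows the 2 experiments of the study's methods. Deviations from the group means of same-numbered libraries correlated at r = 0.546 across genes, which is 1 value for 2 pairs. The members and lists were chosen with earlier results of these data known. Named genes were the 10 members, PML, the members of lists of up to 6 genes, up to 3 called genes of longer lists, and the 5 nearest genes. Monocyte markers were added after values were seen. The p-values rest on dispersions estimated with information from all genes tested, as 4 libraries tell little of a single gene. They are thus not a measure of each gene's own spread between libraries. Each edgeR SE was computed as the size of the log2 fold change divided by the square root of the test's F statistic. Alternatives were no block, DESeq2, other scalings and filters, other thresholds, and leaving out each library.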

Additional observations from a re-analysis of the deposited data

How the results depend on the processing

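The log2 fold changes of all 10 genes stayed below 0 in all 120 values from the 12 alternatives that refit the data. These refits reuse the same libraries, so the values are not separate checks. The smallest in size was that of SMC3 without shCtrl replicate 1, at -0.05. RLE, upper-quartile or no scaling, no filter, 10 counts in every library, and DESeq2 with or without the replicate block left 7 genes called. These fits called from 898 to 1671 of all genes lower. Without the replicate block, edgeR called 0 of the 10 members, 0 of the 8 condensin genes, and 2 lower and 0 higher of the 43 other genes, for which 19 and 2 were called with it. It then called 55 of all genes lower in place of 1735 and 13 higher in place of 1415. DESeq2 called 898 lower and 577 higher without the block. For the other genes called higher, DESeq2 gave 1 with the block and 0 without it. Leaving out 1 library was possible in edgeR only with no block, and the lone library is then assumed to vary like the other group. Only effect sizes are therefore given for these fits, and they do not show that the calls hold without a library. The mean log2 fold change of condensin minus that of the cohesin SMC genes was -0.73 without shCtrl replicate 1 and -0.50 without shCtrl replicate 2. It was -0.65 without shPML replicate 1 and -0.59 without shPML replicate 2. At a log2 fold change beyond 1, the 3 genes SMC4, NCAPG and NCAPH were called, with 11 lower and 1 higher of the other genes. Of all 16516 genes tested, 646 were lower and 550 higher at that threshold. With no threshold on the fold change, 1 cohesin SMC gene was called lower, as were 2600 of all genes. The difference between condensin and cohesin kept its sign in the 18 alternatives that recompute it. Library scaling cancels in this difference and the filters left these genes in, so those refits could hardly change it (-0.62 in each). The other alternatives ran from -0.77, within replicate 2, to -0.43, for the condensin II subunits alone. Depth was not limiting for the members, with 570 reads or more each.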
